A study of Rattus norvegicus with 12 samples.

Results

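The calcium/calmodulin-dependent protein kinases were followed in 3 tissues, sciatic nerve, dorsal root ganglion (DRG) and dorsal spinal cord, of rats that had received a myelin basic protein peptide, MBP84-104, in the left sciatic nerve. The 10 genes are Camk1, Camk1d and Camk1g (CaMKI isoforms), Camk2a, Camk2b, Camk2d and Camk2g (the CaMKII subunits), Camk4 (CaMKIV), and Camkk1 and Camkk2 (the upstream kinases). They were found by the RefSeq accession that each array probe carries, which gave 13 probes of 30367 on the array and 10 genes of 15159 named there. Camk2b, Camk2d and Camkk1 had more than 1 probe and the other 7 genes had 1. The family was selected because of its lumbar against thoracic cord ratios in these arrays, so that comparison is given as a description, with no test.

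Calcium entering a neuron binds calmodulin, and calcium-loaded calmodulin releases these kinases from their own inhibitory segment. CaMKII assembles into rings of many subunits that can phosphorylate one another and so stay active after calcium has fallen, and it is known as a major protein of the postsynaptic density and for its part in the sensitization of dorsal horn neurons. CaMKK1 and CaMKK2 phosphorylate CaMKI and CaMKIV, and CaMKK2 also acts on the AMP-activated protein kinase (AMPK). CaMKIV works mainly in the nucleus, where it phosphorylates the transcription factor CREB.

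RNA was labelled with 1 dye and hybridised to 12 arrays, each a different condition and each a pool of 3 animals, so no condition had a replicate. All animals were females of 8 weeks and all had received 50 µg of MBP84-104 in 5 µL, and no untreated animals were included in these comparisons. In the nerve, the injected left side was compared with the right side, which had received phosphate-buffered saline. In the DRG, the ganglia of the injected side were compared with those of the right side. In the cord, the left dorsal part of the lumbar enlargement was compared with the left dorsal part above it, called thoracic here, from the same kind of animal. Each of these 3 pairs was made in wild-type Sprague-Dawley rats, labelled as taken at day 12, and in athymic nude Hsd:RH-Foxn1rnu rats, which lack mature T cells, labelled as taken at day 7. The published account differs from these labels, since it describes the wild-type animals as heterozygous for the nude allele and gives the same time for both kinds of rat. By the labels, strain, day and T cell status cannot be told apart, and in the DRG and cord the slide went with the rat type as well.

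Levels are log2 signals minus the median of all probes on the same array, so a level of 1 is a doubling over that median, and they compare arrays for the same probe but not one gene with another. The median signal ran from 15.4 on the injected nude nerve array to 74.9 on the wild-type thoracic cord array, and 52.6% to 71.5% of probes were well above background by the scanner software. Markers of the labelled tissues were checked first. Summed over the array, 10 sensory neuron genes stood at 747 to 848 times the array median in the DRG and at 6.80 to 30.3 times elsewhere, and 8 astrocyte genes stood at 541 to 635 times in the cord and at 22.7 to 54.2 times elsewhere. The 3 Hox genes tested for cord level were higher in both lumbar arrays, and their median log2 ratios were 4.73 (wild-type) and 2.11 (nude). In every tissue, more cells of a type and more RNA per cell cannot be told apart.

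In the dorsal cord, most of the kinase genes read higher at the lumbar than at the thoracic level. All 10 genes were well above background on all 4 cord arrays. In wild-type rats the log2 ratio of lumbar to thoracic was above 0 for 10 of 10 genes, with Camk2g at only 0.0004, and the median was 0.53. In nude rats it was above 0 for 8 of 10, and the median was 0.30. Of all genes measured, 40.3% in wild-type and 37.7% in nude rats were above 0, and their median was -0.07 in each. These are the ratios that chose the family, so nothing is read from that contrast with the background.

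Camk2b, the β subunit that ties CaMKII to actin filaments, had the largest ratio. Its signal was 436 on the wild-type lumbar array and 275 on the thoracic one, and 478 and 307 on the nude arrays. In centred levels this was 3.00 against 1.88 in wild-type and 3.095 against 2.51 in nude rats. The lumbar array was therefore above the thoracic one in both rat types, by 2.18-fold in wild-type rats and by 1.5-fold in the nude pair. The 2 spots that carry this probe gave log2 ratios of 1.07 and 1.19 in wild-type and of 0.49 and 0.68 in nude rats. A second Camk2b probe gave a smaller log2 ratio of 0.80 in wild-type and only 0.09 in nude rats, so the nude value depended on the probe.

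The proximal promoter of Camk2b is shown because it is the richest in CpG of the 8 family promoters found in the RefSeq table, on the GRCr8 build. Capitals mark the GC box GGGCGG on either strand, the element that Sp1-type factors bind, and neighbouring boxes share bases. It lies at chr14:85147945-85148194 on the minus strand and runs 250 bases up to the 1 transcript start that the table takes for each gene, which for the 4 genes shown lies inside the annotated span of the gene, so longer transcripts start further out. It is 80.4% G or C, holds 47 CpG and has 5 GC boxes.
Camk2b: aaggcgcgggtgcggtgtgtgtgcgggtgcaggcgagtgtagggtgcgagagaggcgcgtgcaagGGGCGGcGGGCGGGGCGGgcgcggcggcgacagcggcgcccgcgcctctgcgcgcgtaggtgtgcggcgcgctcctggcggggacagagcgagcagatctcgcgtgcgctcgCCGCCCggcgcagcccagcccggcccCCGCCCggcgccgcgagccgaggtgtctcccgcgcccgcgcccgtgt
The same stretch of Camk1g, another gene with a high lumbar ratio, is shown beside it because, like that of Camk4, it holds no CpG. It lies at chr13:107430231-107430480 on the minus strand, is 45.2% G or C with 0 CpG, and has no GC box and 1 CCAAT box, in capitals, which reads ATTGG on this strand.
Camk1g: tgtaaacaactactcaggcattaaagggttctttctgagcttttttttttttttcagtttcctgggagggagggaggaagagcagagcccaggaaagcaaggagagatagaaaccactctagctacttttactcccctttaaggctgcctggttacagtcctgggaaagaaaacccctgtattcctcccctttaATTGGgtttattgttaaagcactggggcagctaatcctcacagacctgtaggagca

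Camk1g, a membrane-anchored CaMKI isoform, read 2.57 on the wild-type lumbar array and 1.71 on the thoracic one, and 2.23 against 1.88 in nude rats. Its fold was 1.82 in wild-type, and its 2 spots spanned log2 ratios of 0.65 to 1.08. Camk4 read 2.26 against 1.32 in wild-type rats, a 1.92-fold ratio, and 2.07 against 1.82 in nude rats. The spots of Camk4 lay close together, at 0.92 and 0.97 in wild-type and at 0.22 and 0.28 in nude rats. Camkk2 read 0.69 against -0.11 in wild-type, 1.74-fold, and 0.64 against 0.08 in nude rats. Camk2a, the α subunit, abundant in the forebrain, read -1.18 against -1.78 in wild-type, 1.51-fold, and -0.76 against -1.26 in nude rats.

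The other 5 genes had smaller ratios. Camk2d, the δ subunit, stood at log2 ratios of 0.46 and 0.41 in the wild-type and nude pairs, and its second probe at 0.56 and 0.20. Camk1d gave 0.38 and 0.23, from a probe with only 1 spot on each array. Camkk1 stood at 0.09 in both rat types by its brighter probe, while its dimmer probe gave 0.56 and 0.64, the widest disagreement between probes of a gene in the cord. Camk1 and Camk2g, at 0.13 and 0.0004 in wild-type rats, were lower in the lumbar array in nude rats, at -0.26 and -0.24.

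One gene, Camk2b, was at least 2-fold higher in wild-type rats and none was in nude rats, where 1.75% and 1.37% of all genes were at least 2-fold apart in either direction. At 1.5-fold the lumbar array was higher for 5 genes in wild-type rats, beside 4.38% of all genes, and for 1 gene in nude rats, beside 2.84%. In wild-type rats Camk2a at 1.51-fold lay just inside that limit and Camk2d at 1.37-fold just outside it. In nude rats Camk2b lay at the limit, at 1.5-fold, and Camkk2 just outside at 1.47-fold. Within all genes measured, Camk2b stood at percentile 99.3 in wild-type and 97.2 in nude rats, and Camkk2 at 98.2 and 96.8. The wild-type ratio was above the nude ratio for 10 of 10 genes, most for Camk4, by 0.70 on the log2 scale, and least for Camkk1, by 0.0008, where the second probe was the higher in nude rats. Of all genes measured in both, the wild-type ratio was the greater for 52.1%. These are again the ratios that chose the family, so nothing is read from these contrasts with all genes. With 1 pool on each side, the difference between the rat types was not tested.

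**Figure D1:**
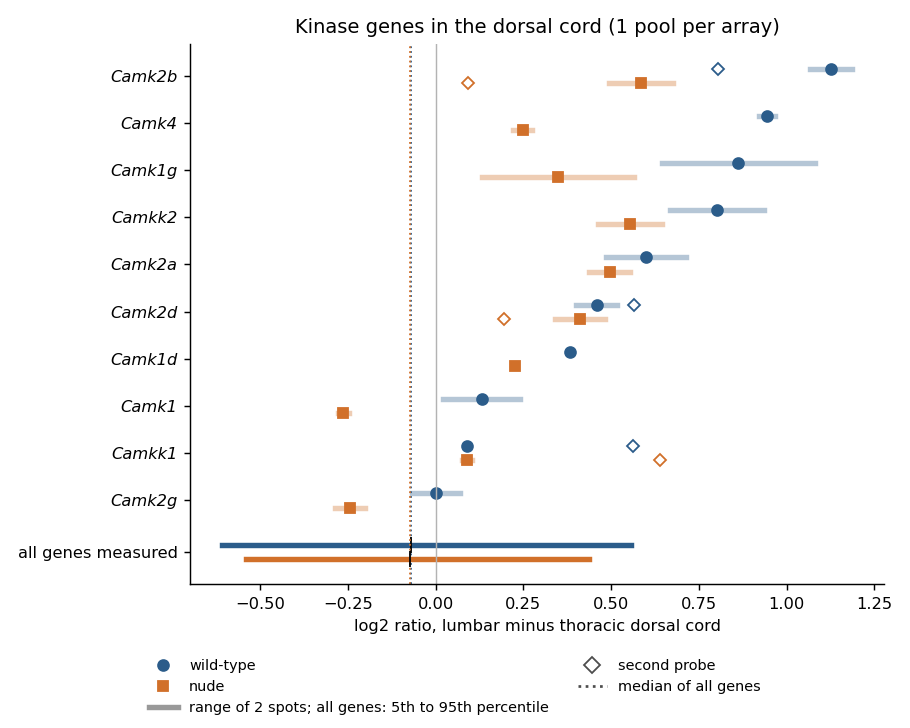
Log2 ratio of lumbar to thoracic dorsal cord for the 10 kinase genes, with circles for wild-type and squares for nude rats, open diamonds for second probes and bars for the range of the 2 spots of a probe. The lowest bars give the 5th to 95th percentile of all genes measured, -0.61 to 0.56 in wild-type and -0.54 to 0.44 in nude rats, and Camk2b, Camk4, Camk1g, Camkk2 and, narrowly, Camk2a at 0.60 lie to the right of it in wild-type rats.

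Some cell type markers differed between the lumbar and thoracic arrays in the direction of these ratios, and others did not. Of 18 dorsal horn neuron genes, 17 were higher in the lumbar array in wild-type and 18 in nude rats, with median log2 ratios of 0.55 and 0.31. Their summed signal was 752 times the array median against 592 in wild-type and 784 against 628 in nude rats, and all 18 were well above background on every cord array. The 9 general neuron markers had medians of 0.17 and -0.12, with sums of 1512 against 1435 in wild-type and 1260 against 1414 in nude rats. Schwann cell markers, of peripheral nerve, had medians of 2.09 and 1.36, with 8 of 8 above background in the lumbar and 6 of 8 in the thoracic arrays and sums of 509 against 183 and 427 against 216. Oligodendrocyte markers had medians of -0.52 and -0.55, with sums of 5558 against 5074 in wild-type, opposite in direction to the median, and 5709 against 6703 in nude rats. Astrocyte markers had medians of 0.03 and -0.27, microglia markers of 0.15 and 0.18, and ventral cord markers of -0.19 and -1.08. The part of any of these in the kinase ratios was not tested.

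The calcium-calmodulin pathway around the kinases did not move as 1 block in the cord. Genes of the synapse on which CaMKII acts were higher in the lumbar array in 13 of 13 measured in wild-type and in 10 of 11 in nude rats, with median log2 ratios of 0.49 and 0.15. Among them Syn1, a synaptic vesicle protein, stood at 0.92 and 0.11, Gria1, an AMPA receptor subunit, at 0.70 and 0.26, and Dlg4, the scaffold PSD-95, at 0.58 and 0.53. Shank3 stood at 0.58 in wild-type but at -0.10 in nude rats. Activity-induced genes were higher in 5 of 6 and in 4 of 6, with medians of 0.44 and 0.14. Fos stood at 0.71 and 0.23 and Arc at 0.46 and 0.23, while Egr1 stood at 0.43 and 0.045 and Junb at 0.14 and -0.12. Egr2, singled out after its values were seen, stood at 2.49 and 1.47, and it is also a gene of myelinating Schwann cells, whose markers moved in the same arrays.

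Calmodulin and its binding proteins were split, with 6 of 10 and 4 of 10 higher and medians of 0.18 and -0.05. Camk2n1 and Camk2n2, which encode the CaMKII inhibitor proteins, stood at 0.56 and 0.62 in wild-type but at -0.23 and 0.06 in nude rats, and Calm3, a calmodulin gene, stood at -0.37 and -0.27. Of 15 related kinases 9 and 7 were higher, from Camkv at 0.84 and 0.31 to Mylk, the smooth muscle myosin kinase, at -1.33 and -0.99.

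Calcineurin, the calmodulin-dependent phosphatase, and its NFAT and regulator genes had medians of -0.11 and -0.04, with 4 of 9 higher in each rat type. The nuclear targets of CaMKIV had medians of -0.04 and -0.18, with 5 of 10 and 2 of 9 higher. Creb1 stood at 0.14 in both rat types and Crem at -0.38 and -0.28. AMPK subunits had medians of -0.21 and -0.17, with 1 of 6 and 2 of 6 higher, and Prkag2 stood at -0.66 and -0.64. Each of these ratios rests on 1 pool against 1 pool, and since the cord contrast chose the family no test of it is given.

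**Figure D2:**
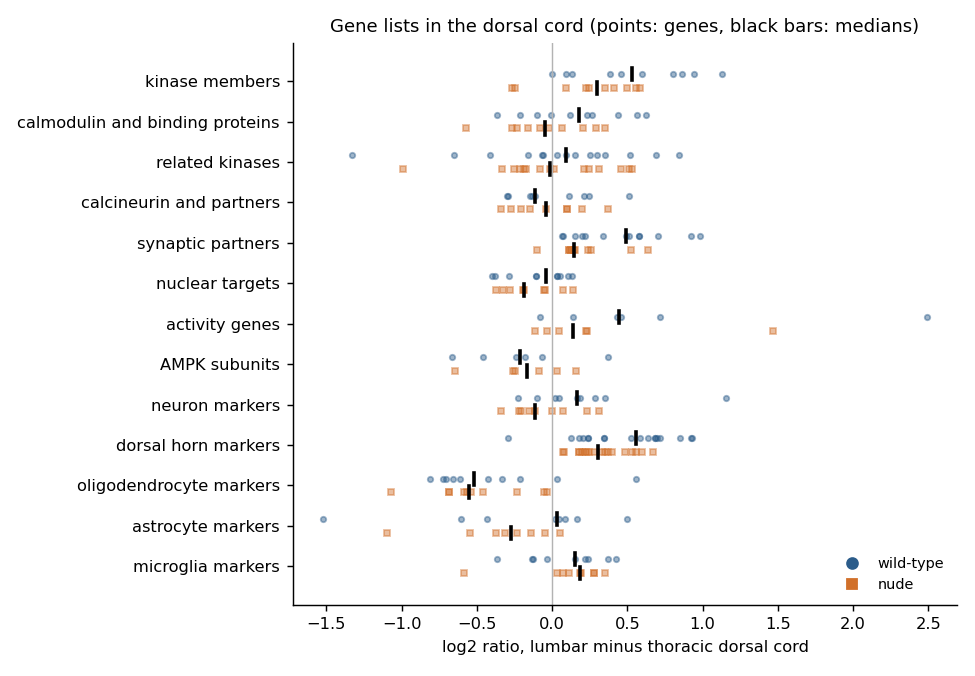
Lumbar minus thoracic log2 ratios of the kinases and of other pathway genes, grouped by role, in wild-type and nude rats. Each point is 1 gene, and the synaptic partners have medians of 0.49 and 0.15 where the AMPK subunits have -0.21 and -0.17.

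Across the 3 tissues, the dorsal cord held the highest level of most of the family. The 4 arrays of each tissue were compared with limma over 11074 genes, with the rat type as a covariate and the p-values adjusted over all genes by Benjamini-Hochberg. Values below the lowest signal well above background on an array were set to that floor. Both sides entered, so the difference between them counts as spread. By the study's account both nerve sides and both cord levels came from the same animals, which this fit treats as independent arrays, so the p-values measure the spread between these arrays only and may be too small.

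A gene needed a signal well above background on 4 arrays or more to enter the fit, and Camk2a and Camkk2 did so only through the cord. Against the nerve, 8 of 10 kinase genes were called higher in the cord and 1 was called lower, where 28.8% of all genes were higher and 36.3% lower. Their median log2 difference was 2.06, beside -0.13 for all genes. Against the DRG, 9 of 10 were called higher and 0 lower, where 34.6% of all genes were higher and 26.0% lower, and the medians were 1.51 and 0.12. Among the 8 kinase genes seen on 4 or more arrays outside the cord, 7 were called higher and 1 lower than in nerve and 8 higher than in DRG, where 27.1%, 39.0% and 33.6% of all genes so filtered were. Between DRG and nerve the family was split, with 3 genes called higher in the DRG and 2 lower, where 12.4% and 33.3% of all genes were. Cell composition differs between these tissues throughout. Of 18 dorsal horn neuron genes 16 were called higher in cord than in nerve, but 7 entered the fit only through the cord. Of the other 11, 9 were called higher, and of 8 Schwann cell genes 6 were called lower. The part of composition in the kinase differences was not tested.

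Camk2g, the γ subunit of CaMKII, which also carries calmodulin to the nucleus, separated the cord most. Its centred levels in the cord were 3.21 and 3.45 in nude and 3.46 and 3.46 in wild-type rats, lumbar first. In the DRG they were 0.31 and -0.46 in nude and 0.30 and 0.65 in wild-type rats, control side first. In the nerve they were -0.78 and -1.37 in nude and -0.70 and -1.23 in wild-type rats, the injected nude array not being well above background. The 3 tissues did not overlap. The limma difference from nerve was 4.23 on the log2 scale, 18.8-fold (SE 0.22, adjusted p = 4.69e-09), and that from the DRG was 3.20, 9.18-fold (adjusted p = 1.71e-07). The DRG in turn exceeded the nerve by 1.03 (adjusted p = 0.00201). Normexp, which compresses low signals, gave 2.83, 2.45 and 0.38 for these 3 differences.
The promoter of Camk2g is shown because it has the most GC boxes of the family, 7, in capitals. It lies at chr15:3553106-3553355 on the plus strand and is 80.8% G or C with 30 CpG.
Camk2g: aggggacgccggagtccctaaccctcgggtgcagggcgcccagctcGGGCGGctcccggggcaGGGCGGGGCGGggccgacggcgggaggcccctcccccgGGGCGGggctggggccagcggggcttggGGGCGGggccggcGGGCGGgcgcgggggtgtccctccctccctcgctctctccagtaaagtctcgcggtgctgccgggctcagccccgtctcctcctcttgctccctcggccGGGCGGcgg

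Camk1g fell away from cord to DRG to nerve. Cord levels ran from 1.71 to 2.57, DRG levels from -0.76 to -0.30 and nerve levels from -1.95 to -1.07, with only 1 nerve array well above background. The cord range lay above both others. Nerve arrays not well above background entered the fit at their floors, and that of the injected nude array, -0.62, lay within the DRG range. The limma difference between cord and nerve was 3.48, 11.1-fold (SE 0.27, adjusted p = 1.73e-07), and 2.61 between cord and DRG (adjusted p = 5.20e-06). Differences of this gene from nerve are bounds against those floors. Over 14 other ways of processing, cord exceeded nerve by as little as 1.72. The DRG was higher than the nerve by 0.86 (adjusted p = 0.0185), but that call was lost when any of 4 arrays was left out, with adjusted p = 0.0516 without the nude control nerve, 0.0540 without the nude control DRG, 0.0518 without the wild-type injected nerve and 0.0587 without the wild-type injected-side DRG.

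Camk4 was not well above background on any nerve array. It read 1.32 to 2.26 in the cord and 0.46 to 0.82 in the DRG. Against the floor of each nerve array, cord exceeded nerve by at least 10.2-fold (adjusted p = 6.00e-07, limma), and DRG exceeded nerve by at least 4.20-fold (adjusted p = 0.000112, limma). These bounds depend on the processing, and with the normexp background correction the log2 differences were only 1.63 and 0.68, still past the threshold. Cord exceeded DRG by a log2 difference of 1.28 (SE 0.29, adjusted p = 0.00258).

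The upstream kinases were also highest in the cord. Camkk1 read 1.98 to 2.14 there, with an SD of 0.07 over the 4 arrays, the narrowest of the family in the cord. In the nerve it read -0.12 and -0.09 on the control sides and -2.003 and -0.59 on the injected sides, nude rats first. The injected nude array was not well above background and entered the fit at its floor of -0.62. In the DRG Camkk1 read -1.17 to -0.64. Cord exceeded nerve by 2.42 (adjusted p = 8.31e-08) and DRG by 3.02, 8.11-fold (adjusted p = 4.12e-08, limma). Over 14 other ways of processing these differences were as low as 1.44 and 1.65. The dimmer Camkk1 probe read only -1.39 to -0.53 in the cord. It was not well above background on any nerve array, so the sizes depend on the probe. Camkk1 was called lower in the DRG than in the nerve (-0.60, adjusted p = 0.0123), with 2 of 4 DRG arrays well above background, and only 5 of 14 other ways of processing kept that call. Camkk2 read -0.11 to 0.69 in the cord and was well above background on only 1 array each of DRG and nerve. Cord exceeded nerve by 1.44 and DRG by 1.57 in the fit, values with no test here because the gene entered the fit only through the cord, where it is high.

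Among the remaining CaMKII subunits, Camk2b read 1.88 to 3.095 in the cord, 1.13 to 1.24 in the DRG and 0.20 to 1.23 in the nerve. DRG and nerve overlapped and did not pass the test (log2 difference 0.37, interval -0.21 to 0.95), while cord exceeded nerve by 1.83 (adjusted p = 6.21e-05, limma) and DRG by 1.46 (adjusted p = 0.000556, limma). Camk2d had the smallest called cord differences of the subunits, 1.01 from nerve (adjusted p = 0.000858) and 0.81 from DRG (adjusted p = 0.00459). Camk2a was well above background on all 4 cord arrays, on 1 DRG array and on no nerve array. With the floor in place its difference of cord from nerve was 0.23 in the fit, so the arrays bound it poorly there. That value has no test here, because the gene entered the fit only through the cord. On every nerve array its value was the floor.

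Camk1 was the 1 gene of the family that was highest in the nerve. Its nerve levels were 1.77 and 1.32 in nude and 1.40 and 1.32 in wild-type rats, control side first. Its cord levels ran from 0.44 to 0.78 and its DRG levels from -0.38 to 0.27, so the 3 tissues did not overlap. Nerve exceeded cord by 0.81, or 1.75-fold (SE 0.17, adjusted p = 0.000934), and DRG by 1.46, or 2.76-fold (adjusted p = 1.83e-05, limma). The cord exceeded the DRG by 0.65 (adjusted p = 0.00486). These 3 calls held when any 1 of the 12 arrays was left out, and nerve over cord held in 13 of 14 other ways of processing, the exception being normexp (-0.30 for cord minus nerve, adjusted p = 0.0794, limma). Its close relative Camk1d ran the other way, at 2.21 to 2.67 in the cord, 0.18 to 0.80 in the DRG and -0.09 to 0.29 in the nerve, with cord over nerve by 2.29 (adjusted p = 1.22e-07, limma).
The promoter of Camk1 is shown for that contrast with the rest of the family. It lies at chr4:148047146-148047395 on the minus strand, is 57.2% G or C with 10 CpG, has no GC box, and holds 1 TGACG, the core of the CREB-binding element, in capitals.
Camk1: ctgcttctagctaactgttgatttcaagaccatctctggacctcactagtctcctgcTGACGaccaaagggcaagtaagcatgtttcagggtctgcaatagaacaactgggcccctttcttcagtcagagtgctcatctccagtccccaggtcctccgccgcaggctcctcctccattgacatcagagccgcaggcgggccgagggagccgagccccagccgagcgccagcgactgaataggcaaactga

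Motifs were counted on both strands of these 250 bases in the 8 family promoters and in all 33469 promoters of the table. GGGCGG stood in 4 of 8 (Camk2b, Camk2d, Camk2g and Camkk1) and in 30.5% of all. TGACG stood in 3 of 8 (Camk1, Camk2a and Camkk1) and in 18.2% of all, and the full element TGACGTCA, which contains it, in 0 of 8 and 1.59% of all. TATAAA stood in 0 of 8 and 12.9% of all, and CCAAT in 2 of 8 (Camk1g and Camkk1) and 34.0% of all. A match is a run of letters and not a measured binding site.

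**Figure D3:**
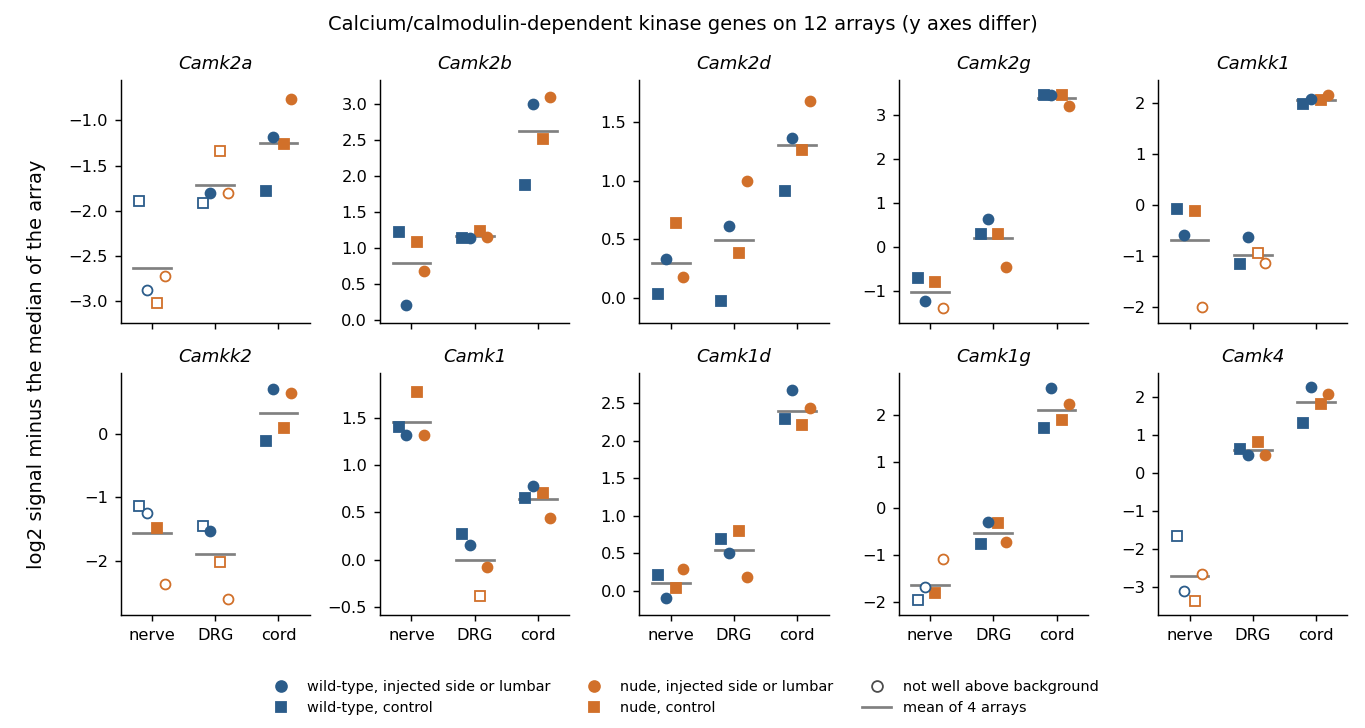
Centred log2 level of each kinase gene on each of the 12 arrays, by tissue, side and rat type, with hollow points where the probe was not well above background. Camk2g lies between 3.21 and 3.46 in the cord and at or below 0.65 elsewhere, and Camk1 lies highest in the nerve.

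**Figure D4:**
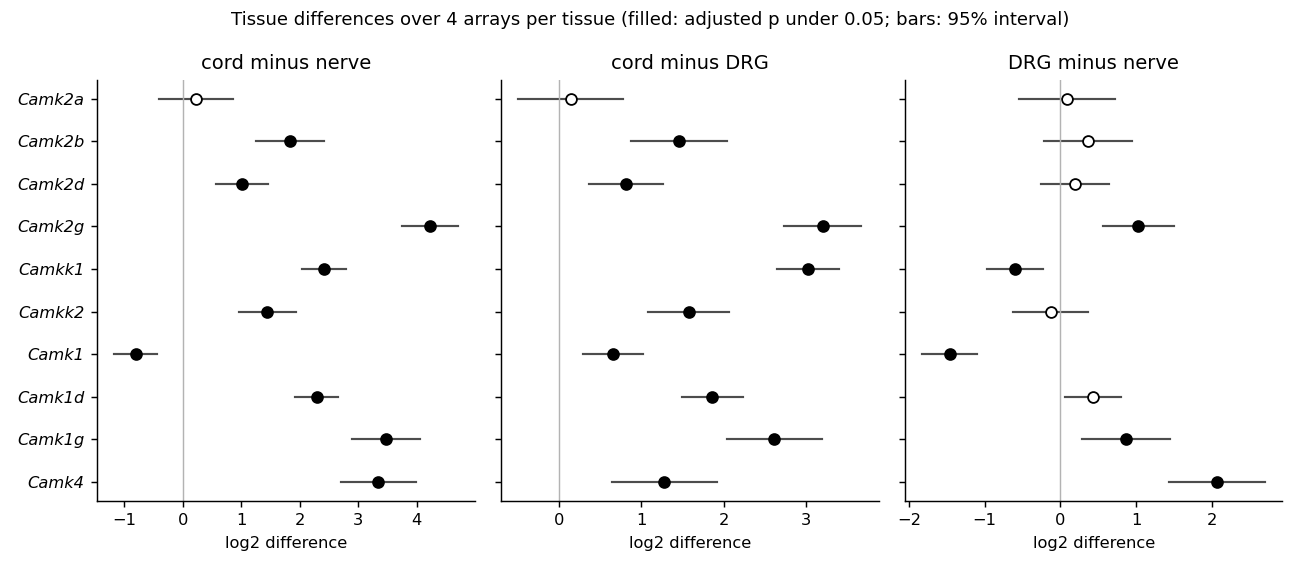
Log2 differences between tissues from the limma fit, with 95% intervals, for the 10 kinase genes. Cord exceeded nerve for Camk2g by 4.23 and fell below it for Camk1, at -0.81. Camk2a, whose intervals include 0, and Camkk2 entered the fit only through the cord.

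Other genes of the pathway are read against the 28.8% of all genes called higher and 36.3% called lower in cord than in nerve. All 9 synaptic genes tested were called higher in cord than in nerve and than in DRG, but 4 of the 9 entered the fit only through the cord. Of 10 calmodulin and calmodulin-binding genes, 9 were called higher in cord than in nerve and 0 lower. Against the DRG 4 were higher and 1 lower, where 34.6% and 26.0% of all genes were. Of these 10 genes 2 entered the fit only through the cord. Among the other 8, 7 were called higher than in nerve and 2 higher than in DRG. Of 9 calcineurin pathway genes 4 were called higher and 4 lower in cord than in nerve, and of 9 nuclear targets 1 was higher and 5 were lower. Of 6 activity-induced genes 1 was called higher and 3 were lower, and of 6 AMPK subunits 3 were higher and 1 was lower. Of 15 related kinases 7 were higher and 2 lower in cord than in nerve. Through the cord alone, 2 of these 15, 2 of the 6 activity-induced genes and 1 of the 9 nuclear targets entered the fit. Without those, 5 of 13 related kinases were called higher than in nerve and 2 lower. Of 4 activity-induced genes 0 were then higher and 3 lower, and of 8 nuclear targets 1 was higher and 5 were lower. Of all genes so filtered, 27.1% were higher and 39.0% lower.

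In the injected nerve, the kinase genes that could be measured mostly read lower than on the control side. A gene seen on 1 array of a pair was compared, as a bound, with the other array's signal, or its floor if higher. No ratio was given where that value was above the measured one, as on the dim injected nude array, whose floor was at -0.62. In wild-type rats 6 genes were measured and 5 read lower, with a median log2 ratio of -0.39 beside -0.05 for all genes, and in nude rats 5 were measured and 4 read lower, with a median of -0.46 beside -0.38. Of all genes only 44.7% in wild-type and 28.0% in nude rats read higher on the injected side, so the nude count is near that of all genes. Camk2b read 1.23 on the control side and 0.20 on the other in wild-type rats, 0.492-fold, and 1.08 against 0.67 in nude rats. Its second probe read 1.30 against 0.40 and 1.82 against 0.60, so both probes read lower on the injected side in both rat types. It was the 1 kinase gene at least 2-fold apart, in wild-type rats, where 8.78% of all genes were, and in nude rats 0 kinase genes and 21.0% of all genes were.

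Averaged over the rat types with each pair as a block, Camk2b differed by -0.72 on the log2 scale (interval -1.25 to -0.19), with an unadjusted p = 0.0140 and an adjusted p = 0.0747 in limma. It therefore missed the threshold, which 13.6% of all genes passed in either direction, and with the mean of its probes the difference was -0.89 and passed. No kinase gene passed in the nerve by the 1 probe used for each gene, which is the brighter over all arrays. Camkk1 differed by -0.50 (adjusted p = 0.173 in limma), with its injected nude array at the floor, and the mean of its probes gave 0.05. Camk2n1, the CaMKII inhibitor gene, stood at -1.61 and -2.12 in the paired ratios. Schwann cell markers moved in the same samples. Their summed signals, control side first, were 3906 against 2105 in wild-type and 4099 against 1931 in nude rats. General neuron markers had sums of 168 against 88.5 and 187 against 93.2, in the same order, but single genes were split in nude rats. Of 7 measured in the wild-type pair 6 read lower, with a median log2 ratio of -0.57 beside -0.05 for all genes. Of 6 measured in the nude pair 3 read lower and 3 higher, with a median of -0.22 beside -0.38. Skeletal muscle markers moved opposite ways, higher for 8 of 9 measured in wild-type (median log2 ratio 1.06, sums of 36.7 against 87.9) and for 1 of 6 in nude rats (-1.13, 25.8 against 13.5). The part of these cells in the kinase values was not tested.

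In the DRG, the family showed no common direction. In wild-type rats 8 genes were measured, 5 read higher on the injected side and the median was 0.18, and in nude rats 7 were measured, 2 read higher and the median was -0.35. No kinase gene was 2-fold apart, where 1.01% and 1.07% of all genes were. Camk2d came closest to a like value in both rat types, at 0.61 against -0.03 in wild-type and 0.99 against 0.38 in nude rats, injected side first. Its difference in the side fit was 0.63 (interval 0.11 to 1.14, unadjusted p = 0.0226, adjusted p = 1.00 in limma), and its second probe gave -0.33 and -0.26, the opposite sign. Over all genes 0.0% passed in the DRG in limma, with 145 genes of 11074 at an unadjusted p under 0.05.

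Camk2g and Camk1g went opposite ways in the ganglia of the 2 rat types. Camk2g stood at 0.35 in wild-type and -0.77 in nude rats, and Camk1g at 0.46 and -0.41. Camk1 in nude rats was well above background only on the injected side. Skeletal muscle markers had a median of 1.70 in the nude DRG, with 7 of 7 measured higher, and of 0.11 in wild-type ones, and their part was not tested. The spots of a kinase probe differed more in the nude DRG than in the other pairs, with a pooled SD of 0.32 on the log2 scale beside 0.15 in the wild-type DRG.

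**Figure D5:**
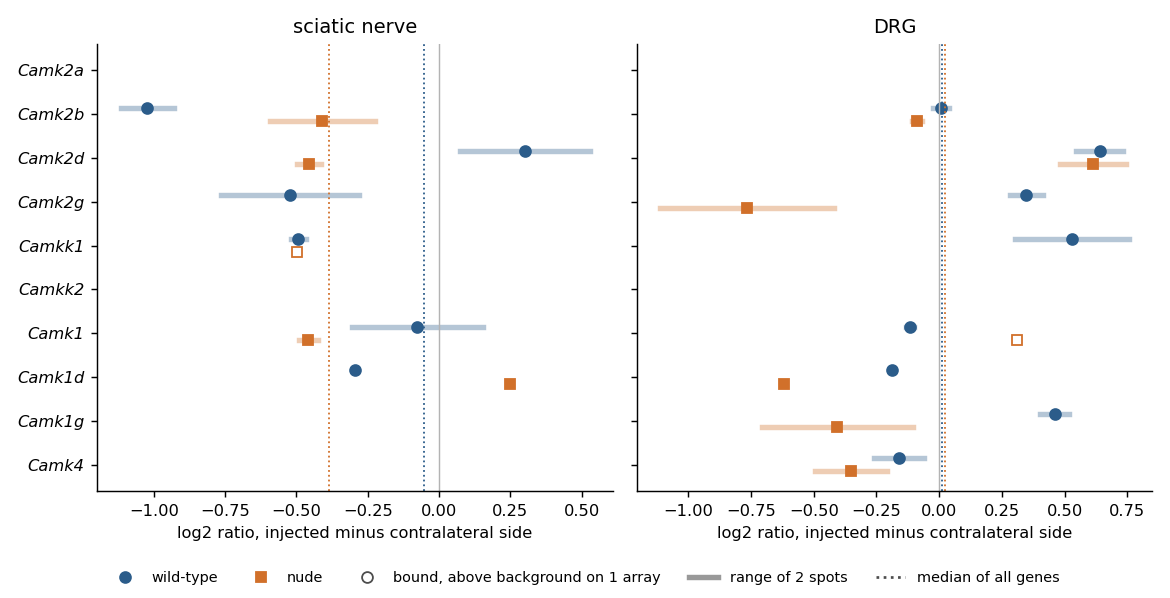
Log2 ratio of the injected to the control side for the kinase genes measured in nerve and DRG, in wild-type and nude rats. Genes without a point were well above background on neither array of that pair, or on 1 array below the floored value of the other. Camk2b in the nerve is lowest in wild-type rats, at -1.02.

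Nude and wild-type rats did not differ in any kinase gene past the threshold. In the fit over 12 arrays 0 of 10 genes were called in limma and 0 had an unadjusted p under 0.05, where 0.0181% of all genes were called, or 2 genes, and 866 genes had an unadjusted p under 0.05. The largest difference was that of Camk2a, 0.45 higher in nude rats (interval -0.06 to 0.97, adjusted p = 0.706), a gene below background on most DRG and nerve arrays. The intervals of Camk1d and Camk1 ran from -0.35 to 0.25 and from -0.43 to 0.16.

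The pattern of each gene over the 12 arrays was set beside that of 11064 others by the root mean square difference of log2 values centred on each gene's mean. The lowest differences were 0.10 for Camk1 with Aldh18a1, 0.19 for Camk1d with Dusp8, 0.19 for Camk1g with Myt1l, 0.26 for Camk2b with Camta2, 0.25 for Camk2d with Stambpl1 and 0.28 for Camk2g with Kcnh2. They were 0.22 for Camk4 with Samd14, 0.19 for Camkk1 with Sparcl1 and 0.16 for Camkk2 with Cbarp. For Camk2a the nearest was Dck, at 0.08, where most nerve and DRG values were at the floor. Within the family, Camk1d and Camk2b were the closest, at 0.39, and Camkk2 lay nearest to Camk2b, at 0.42. Camk1 had no relative so close, its nearest family gene being Camk2a, at 0.89, more than the 0.63 by which its own profile varied.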

How the data were processed

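The authors hybridised RNA from 12 pools to single-colour Agilent arrays and deposited Feature Extraction output, version 10.7.3.1 per the file headers and 10.5 per the labels, of 62976 spots each. The deposited gProcessedSignal is an intensity, background-subtracted within each array. The deposited flags (other values, 0 or 1) mark spots well above background or outlying. The authors' deposited log2 table, whose columns share 1 distribution, served as an alternative. Precision is limited by 1 array per condition.

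Control spots and outlying spots were left out, the spots of a probe averaged, log2 signals centred on the array median, and the brightest probe used for each gene. A probe counted as well above background where all its spots carried the flag. Ratios were taken where at least 1 of the 2 arrays was, with a floor at the lowest signal well above background. None was given where the other array's signal, so floored, exceeded the measured value. Genes well above background on at least 4 arrays entered limma 3.58.1 in R 4.3.3, at an adjusted p of 0.05. The limma steps were tested on simulated data: of 200 genes changed by 1 on the log2 scale, 152 were recovered between cord and nerve and 0 between the nerve sides, and of 200 changed by 2, 198 and 179 were. All 10 kinases were named, with every probe, by rule, and up to 4 genes of each pathway list. The members and lists were chosen with earlier results of these data known. Alternatives were other scalings, normexp (offset 50) on median spot signals, other filters, probe rules and samples, and leaving out each array. Probes are placed on no genome here, and promoter sequences are from RefSeq (GRCr8), with 8 of 10 kinases matched. Protein sequences were not used here.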

Additional observations from a re-analysis of the deposited data

Results flagged for a closer look

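In the cord, Camk2g on the nude lumbar array lay below the other 3 arrays (3.21 against 3.45 to 3.46), a gap of 0.96 of the whole range. The 4 arrays are 4 conditions and the cord values chose the family, so this is a description and no test. It was 1 of 30 gene-by-tissue sets of 4 arrays past Dixon's limit, which chance alone passes in about 1 in 20.

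The paired ratios had opposite signs in wild-type and nude rats for 4 genes, each from 1 pair per rat type, so these differences were not tested. In the nerve Camk2d differed by 0.76 (0.30 in wild-type, -0.46 in nude rats) and Camk1d by -0.54 (-0.29 and 0.25). Skeletal muscle markers also moved opposite ways in the nerve, with medians of 1.06 and -1.13. In the DRG Camk2g differed by 1.11 (0.35 and -0.77) and Camk1g by 0.87 (0.46 and -0.41), where those markers had medians of 0.11 and 1.70.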

How the results depend on the processing

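No paired analysis was possible by replicate number because the labels carry none, and the sides were paired within each rat type instead, as reported for nerve and DRG. No result of the family changed direction past its threshold. The median wild-type cord ratio, 0.53, became 0.26 with normexp, and the 1 gene at least 2-fold apart there became 2 with cyclic loess, 0 with normexp, 0 with the mean over probes and 5 at 1.5-fold. At 1.5-fold the counts were 1 in the nude cord, 1 in the wild-type DRG and 3 in the nude DRG. In the nerve the wild-type median, -0.39, became -0.11 with normexp, and its count of 1 became 0 with the 75th percentile, quantile, loess, normexp, the authors' values or the mean over probes, and 2 with no filter and no floor. The nude nerve median, -0.46, became -0.16 with the 75th percentile, and its count of 0 became 1 with loess, with no filter and where flags on 50% of a probe's spots were enough, an alternative chosen after seeing the data. The nude DRG median, -0.35, became -0.093 with normexp. The 1 gene lower in cord than in nerve, Camk1, became 0 with normexp. The 3 genes higher in DRG than in nerve became 1 with nude arrays only and 1 with slide as a term. The 2 genes lower became 1 with the 75th percentile, loess, normexp, no floor, the mean over probes, the 50% rule, nude arrays only, wild-type arrays only or slide as a term. The 0 genes lower in the injected nerve became 1 with the mean over probes. Of the single tissue differences under other settings, 746 kept their side of the threshold, 23 lost it and 11 gained it, and the causes were not tested. Dim probes limit Camk2a, Camk4 and Camkk2 outside the cord, where signals were often not well above background.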
